A study of Mus musculus with 12 samples.

Results

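The genes described here acidify the lysosome and digest what it takes up. They are 39 genes chosen by symbol from the 57010 genes listed in the counts, by their known roles in the pump and the lysosome. Of these, 17 encode the V-ATPase proton pump. They comprise 2 osteoclast-enriched subunits (Tcirg1 and Atp6v1c1), 6 other subunits of the membrane sector V0, 7 other subunits of the cytosolic sector V1 and 2 accessory proteins. The other 22 encode 14 hydrolases (8 proteases, and 6 glycosidases and lipase), 6 membrane, lipid transfer or channel proteins and 2 transcription factors. All 39 were among the 15425 genes that passed the filter on low counts, and the lowest count of any of them in any library was 741, for Tfeb.

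The V-ATPase splits ATP on its cytosolic V1 sector and drives protons through the membrane by its V0 sector. In most cells it acidifies lysosomes and endosomes, where cathepsins, glycosidases and acid lipase need a low pH to work. In osteoclasts the pump also moves to the ruffled border and releases acid onto bone, and loss of its osteoclast-enriched a subunit, encoded by Tcirg1, causes osteopetrosis. The transcription factors Tfeb and Tfe3 bind the E-box letters CACGTG in promoters of many lysosomal genes, and are held in the cytosol by nutrient-sensing kinases at the lysosome.

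RNA was sequenced from 12 libraries of preosteoclasts, that is, bone marrow cells of female mice cultured for 2 days with the growth factor M-CSF and the osteoclast-inducing cytokine RANKL. LSD1cKO mice carry floxed LSD1 (Kdm1a, a histone demethylase) and Cre recombinase driven by the LysM promoter of myeloid cells. LSD1WT mice are their controls, and the alleles of the controls are not given in more detail in the sources used here. The labels give an age of 2 months. The methods of the study give a different age for the sequenced mice, and 2 months as the age at ligature placement. The 3 cultures were mandible marrow of mice that carried a ligature round a tooth for 7 days (a model of periodontitis), femur marrow of ligated mice, and femur marrow of unligated mice, each with 2 libraries of each genotype. The labels name 9 mice, and 3 ligated mice (LSD1WT mouse 1, LSD1cKO mice 1 and 2) each gave 1 library from mandible and 1 from femur. Paired values are given as replicate 1 then replicate 2, or replicate 1 then replicate 3 in mandible LSD1WT. That replicate 3 is mandible by its title but femur by its library name, and was taken as mandible.

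Total counts ran from 21375805 to 32526751 per library. Kdm1a stood at 61.2 to 71.3 CPM (counts per 1000000 reads of the scaled library size) in the 6 LSD1WT libraries and at 15.6 to 24.3 CPM in the 6 LSD1cKO libraries. The 2 mandible LSD1WT libraries differed by 1.56 times the variance of sampling alone, and the other 5 pairs by 5.73 to 124 times, so mandible LSD1WT shows little of the spread between mice. Both femur LSD1WT libraries of replicate 2, from a ligated and an unligated mouse, stood apart. The 10 osteoclast markers listed (Acp5, Ctsk, Mmp9 and others) summed to 152 and 227 CPM there and to 10870 to 39112 CPM in the other 10 libraries, with none of the 10 at 0. The 10 macrophage markers summed to 13033 and 9847 CPM there and to 972 to 3386 CPM elsewhere. The genotype and the mandible against femur comparisons are therefore given with and without them, though not for every gene named. That choice was made after the data were seen, and their part in each result was not tested beyond that. The ligature comparisons in femur, and the tests of whether genotype effects differed by site or ligature, are given with all 12 libraries only. Fewer cells of a type and less RNA per cell cannot be told apart in such bulk libraries.

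Promoter sequences of the lysosomal genes are shown first, because they carry the letters that Tfeb and Tfe3 recognise. They come from RefSeq on the GRCm38.p6 assembly, from 250 bases before to 50 after each start site, and 31 of the 39 genes had an entry. The E-box CACGTG, which reads alike on both strands, lay in a promoter of 11 of these 31 genes (35.5%) and of 8.09% of all 27025 genes with an entry. With a flanking T and A on its sides (TCACGTGA, which contains the E-box) it lay in 7 (22.6%) against 1.12%, and GTCACGTG or its reverse complement lay in 8 (25.8%) against 2.55%. The E-box with GT before it and AC after it lay in 0 of the 31 genes, against 0.37% of all genes with an entry. That share is too low for 0 of 31 to count as fewer. Shown are the gene with the most E-boxes (Lamp1, with 4) and the 4 with 2 close together (Mcoln1, Ctsa, Gla and Atp6v0b). Also shown are 3 of the genes with 1 E-box (Atp6v0d1, Atp6v1a and Glb1), whose values in every library are given below. E-boxes are in capitals, and each sequence is written 5′ to 3′ on the gene's own strand.
Lamp1, chr8:13159085-13159166, plus strand: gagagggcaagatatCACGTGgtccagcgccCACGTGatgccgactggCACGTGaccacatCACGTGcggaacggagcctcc
Mcoln1, chr8:3500433-3500494, plus strand: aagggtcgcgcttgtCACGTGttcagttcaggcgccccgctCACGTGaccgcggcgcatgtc
Ctsa, chr2:164833746-164833798, plus strand: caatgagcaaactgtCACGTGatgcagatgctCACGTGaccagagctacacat
Gla, chrX:134601179-134601247, minus strand: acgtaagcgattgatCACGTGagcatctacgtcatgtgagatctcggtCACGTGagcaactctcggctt
Atp6v0b, chr4:117887327-117887380, minus strand: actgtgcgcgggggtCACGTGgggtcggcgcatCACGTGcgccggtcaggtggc
Atp6v0d1, chr8:105566047-105566082, minus strand: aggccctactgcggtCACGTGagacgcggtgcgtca
Atp6v1a, chr16:44139370-44139405, minus strand: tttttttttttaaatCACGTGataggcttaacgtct
Glb1, chr9:114401015-114401050, plus strand: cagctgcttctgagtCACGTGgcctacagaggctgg

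The E-boxes of Lamp1 began 61 to 15 bases before the start site, and that of Atp6v0d1 began 3 bases before it. Atp6v0e, Ctsd and Ctsl were the other 3 genes with an E-box. A match describes the letters in the window and is not a measured binding site. The 8 genes with no entry were Atp6v1c1, Atp6v0a2, Atp6v1b2, Atp6v1g1, Atp6v1h, Ctsb, Ctsh and Npc1.

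Levels between genes can be set side by side only per length, so CPM was divided by the length of each gene's merged exons in kilobases. On that scale the median over the 12 libraries was highest for Psap, the precursor of the saposins that help degrade sphingolipids, at 1046 CPM per kilobase. Next came Ctsd (584), Ctsz (506), Hexa (449) and Ctsb (437), all lysosomal hydrolases. The highest V-ATPase subunits were Atp6v0b (428) and Atp6v1g1 (399). The transcription factors Tfe3 (9.95) and Tfeb (7.22) and the lysosomal calcium channel gene Mcoln1 (6.54) were among the lowest, together with Atp6v0a2 (10.9) and Atp6v0a1 (9.18). The members' ranges overlap along this order. Psap alone spanned 527 to 3356 CPM per kilobase, and its range overlapped that of Ctsd, at 259 to 2153.

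The genes varied between libraries about as much as other genes did. The highest library over the lowest gave a median ratio of 3.45 over the 39 genes and of 3.08 over all genes tested, and without both femur LSD1WT replicate 2 libraries these were 2.15 and 2.22. Ctsc had the largest ratio (16.7), then Atp6v0a1 (16.0), Lamp1 (11.02) and Ctsb (10.2). Atp6v0d1 had the smallest, at 1.28. The ligated femur LSD1WT replicate 2 library was the highest of the 12 for 12 genes, all of them lysosomal hydrolase, membrane or transcription factor genes. The unligated one was the lowest for 11 genes, of which 9 encode V-ATPase subunits.

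**Figure D1:**
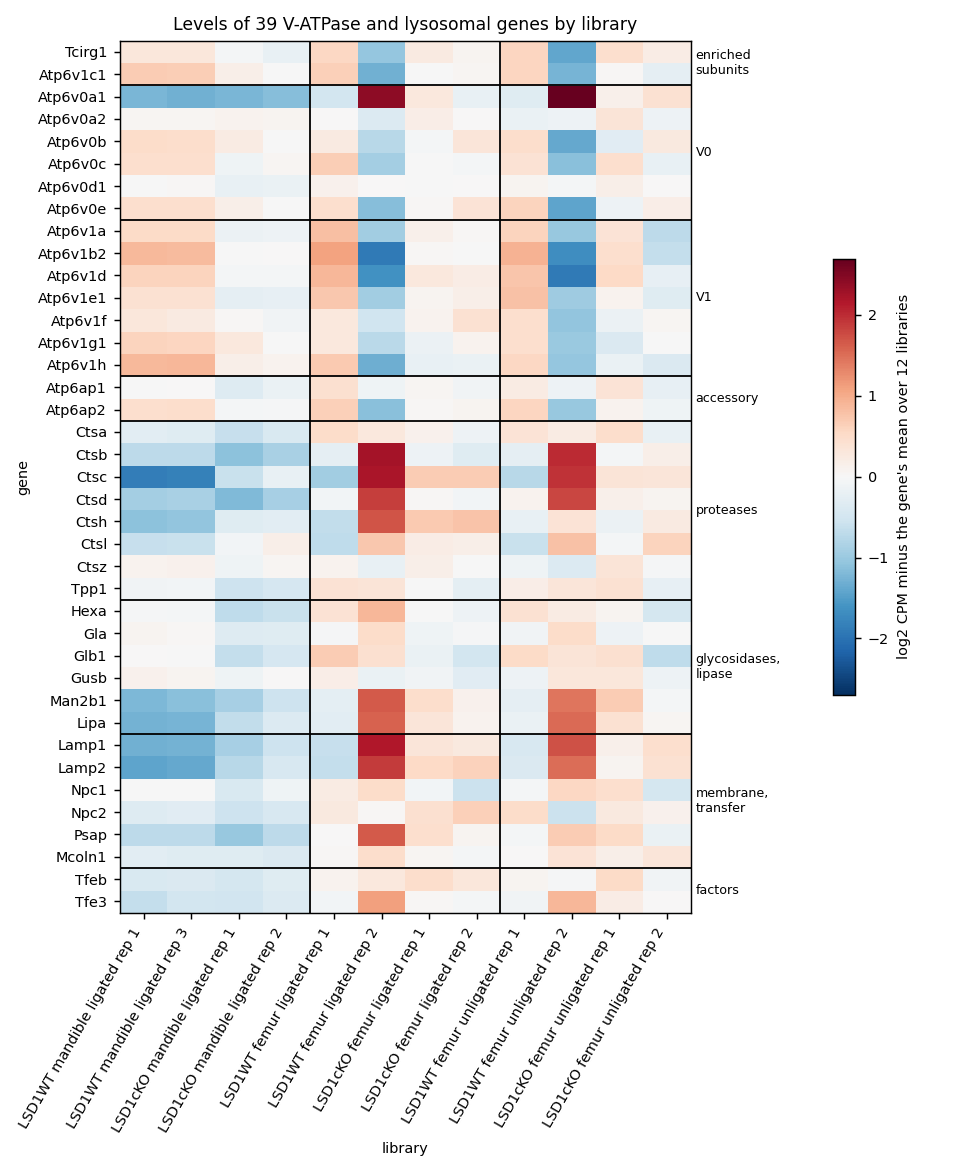
Each row is a gene and each column a library, and colour gives log2 CPM minus the gene's mean over the 12 libraries; black lines separate the gene groups and the 3 cultures. The 2 femur LSD1WT replicate 2 columns are blue over most V-ATPase rows and red for Atp6v0a1 and for Ctsb, Ctsc, Ctsd, Lamp1, Lamp2, Lipa and Man2b1, while Atp6v0d1 hardly changes colour.

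Summed over genes, the 17 V-ATPase genes reached 14139 and 14072 CPM in mandible LSD1WT and 9617 and 9335 CPM in mandible LSD1cKO. In femur LSD1WT they reached 15752 and 5245 CPM with ligature and 14834 and 4928 CPM without, and in femur LSD1cKO 10241 and 10336 CPM with ligature and 11662 and 8465 CPM without. The 14 hydrolases stood at 29672 and 26220 CPM in both femur LSD1WT replicate 2 libraries and at 6070 to 11194 CPM in the other 10. The ratio of V-ATPase to hydrolase counts was thus 2.03 and 2.01 in mandible LSD1WT, 1.58 and 1.33 in mandible LSD1cKO, 1.62 and 1.54 in both femur LSD1WT replicate 1 libraries, and 0.829 to 1.13 in the 4 femur LSD1cKO libraries. It was 0.177 and 0.188 in both femur LSD1WT replicate 2 libraries. Outside those 2 libraries, the LSD1cKO libraries of each culture lay below the LSD1WT libraries of that culture. The osteoclast marker sum was also lower in LSD1cKO than in the LSD1WT libraries of the same culture, those 2 left out, and its part in these ratios was not tested.

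**Figure D2:**
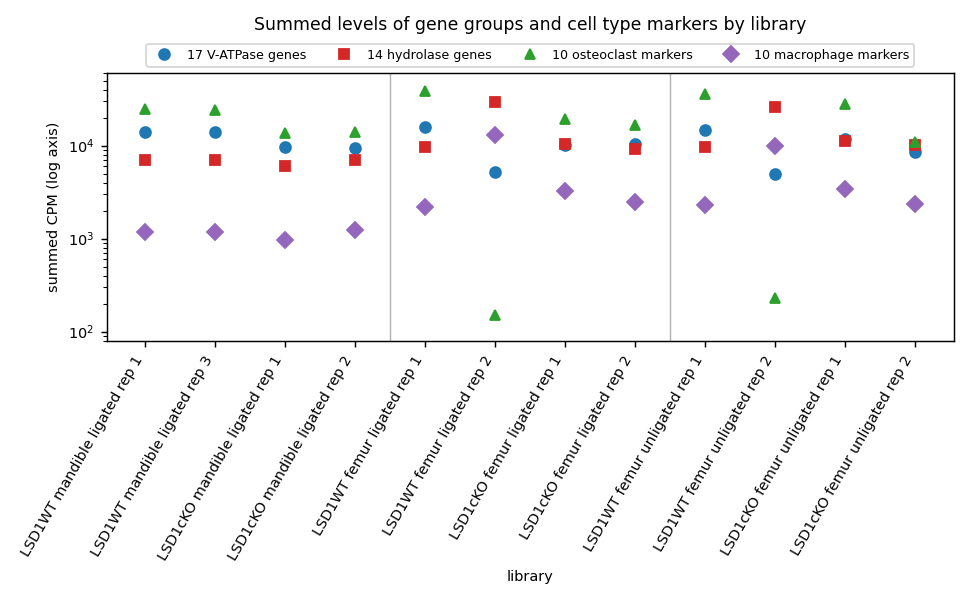
Summed CPM on a log axis for each of the 12 libraries: 17 V-ATPase genes, 14 lysosomal hydrolases, 10 osteoclast markers and 10 macrophage markers. In both femur LSD1WT replicate 2 libraries the osteoclast markers fall to 152 and 227 CPM, V-ATPase genes fall to 5245 and 4928 CPM, and hydrolases and macrophage markers are at their highest.

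Tcirg1, which encodes the a subunit found in the osteoclast's plasma membrane pump, stood at 1251 and 1244 CPM in mandible LSD1WT and 965 and 871 CPM in mandible LSD1cKO. In femur of ligated mice it was 1472 and 489 CPM in LSD1WT and 1191 and 1066 CPM in LSD1cKO, and in femur of unligated mice 1499 and 380 against 1373 and 1152 CPM. Mandible LSD1cKO was below mandible LSD1WT without overlap, and in each femur culture the LSD1cKO pair lay between the LSD1WT values. Over the 3 cultures the log2 fold change was 0.06 ± 0.35 (SE; adjusted p = 0.96 in edgeR's quasi-likelihood test, 6 against 6 libraries). Without both femur LSD1WT replicate 2 libraries it was -0.33 ± 0.10 (adjusted p = 0.039, 6 against 4), so direction and call both turn on them.

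Atp6v1c1 encodes the C subunit that joins the V1 and V0 sectors. Its level was 794 and 788 CPM in mandible LSD1WT and 556 and 491 CPM in mandible LSD1cKO. The femur values were 772 and 201 against 495 and 512 CPM with ligature, and 745 and 207 against 508 and 419 CPM without. Every LSD1cKO library was below the 4 LSD1WT libraries outside replicate 2 of the femur. The log2 fold change over the cultures was -0.19 ± 0.35 (adjusted p = 0.86 in edgeR), and -0.58 ± 0.10 (adjusted p = 0.0017) without those 2 libraries.

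Of the other V0 subunits, Atp6v0c encodes the main proton-carrying ring protein. It was measured at 1078 and 1066 CPM in mandible LSD1WT against 725 and 810 CPM in mandible LSD1cKO. Femur values were 1234 and 413 against 780 and 751 CPM with ligature, and 1020 and 357 against 1067 and 681 CPM without. The unligated femur LSD1cKO replicate 1 library lay above both LSD1WT libraries of its culture, and the fold change over the cultures (-0.08 ± 0.32, adjusted p = 0.94) became -0.43 ± 0.14 (adjusted p = 0.043) without the 2 libraries. Reads on its pseudogene Atp6v0c-ps2 came to 1.05% of those on Atp6v0c, so some exchange of reads between them is possible.

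Atp6v0d1 encodes the d subunit that most cells use. It stayed at 233 and 240 CPM in mandible LSD1WT and 204 and 207 CPM in mandible LSD1cKO. The femur libraries gave 254 and 234 against 233 and 235 CPM with ligature and 247 and 224 against 261 and 236 CPM without. It was the steadiest of the 39 genes, and its fold change over the cultures was -0.06 ± 0.09 (adjusted p = 0.81 in edgeR), or -0.08 ± 0.08 (adjusted p = 0.55) without the 2 libraries. Atp6v0a2, an a subunit of the endosome and Golgi, was at 74.8 and 74.3 CPM in mandible LSD1WT and 76.3 and 75.7 CPM in mandible LSD1cKO. Femur levels were 72.4 and 55.9 against 80.7 and 72.5 CPM with ligature and 63.3 and 64.7 against 90.6 and 65.2 CPM without. LSD1cKO values were above LSD1WT in each culture by a narrow margin (0.19 ± 0.11, adjusted p = 0.46 over the cultures). Atp6v0b and Atp6v0e ranged from 284 to 1043 CPM and from 152 to 617 CPM, each with its lowest value in the unligated femur LSD1WT replicate 2 library.

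Isoforms of the a and d subunits shifted with the libraries. Per kilobase, Tcirg1 made up 91.0% to 94.7% of a subunit transcripts in the 10 libraries other than both femur LSD1WT replicate 2 libraries. In those 2 it made up 61.4% and 50.5%, and Atp6v0a1, which most other cells use, made up 33.8% and 43.6%. Elsewhere Atp6v0a1 stayed between 1.56% and 5.33%. Among the other 10 libraries the Tcirg1 share was 94.5% to 94.7% in the 4 LSD1WT libraries and 91.0% to 92.9% in the 6 LSD1cKO libraries, without overlap. As a level, Atp6v0a1 stood at 384 and 468 CPM in the 2 replicate 2 libraries and at 29.3 to 96.0 CPM in the rest. Its genotype difference over the cultures was -1.02 ± 0.58 (adjusted p = 0.44 in edgeR), and 0.41 ± 0.14 (adjusted p = 0.051) without those 2 libraries. Atp6v0a4, the kidney isoform, was listed at 0 in every library.

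For the d subunit the osteoclast isoform Atp6v0d2, which also takes part in cell fusion, stands beside the members by the naming rule. Its level was 1974 and 1955 CPM in mandible LSD1WT and 1226 and 1119 CPM in mandible LSD1cKO. Femur values were 2185 and 17.04 against 1201 and 1203 CPM with ligature, and 2104 and 11.7 against 1378 and 808 CPM without. Its share of d subunit transcripts was 84.3% to 85.0% in the 4 LSD1WT libraries outside replicate 2 of the femur, 69.3% to 79.8% in the 6 LSD1cKO libraries, and 4.58% and 3.33% in the 2 replicate 2 libraries. The log2 fold change of Atp6v0d2 over the cultures was -0.19 ± 1.01 (adjusted p = 0.96 in edgeR), and -0.79 ± 0.14 (adjusted p = 0.0030) without those 2 libraries.

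**Figure D3:**
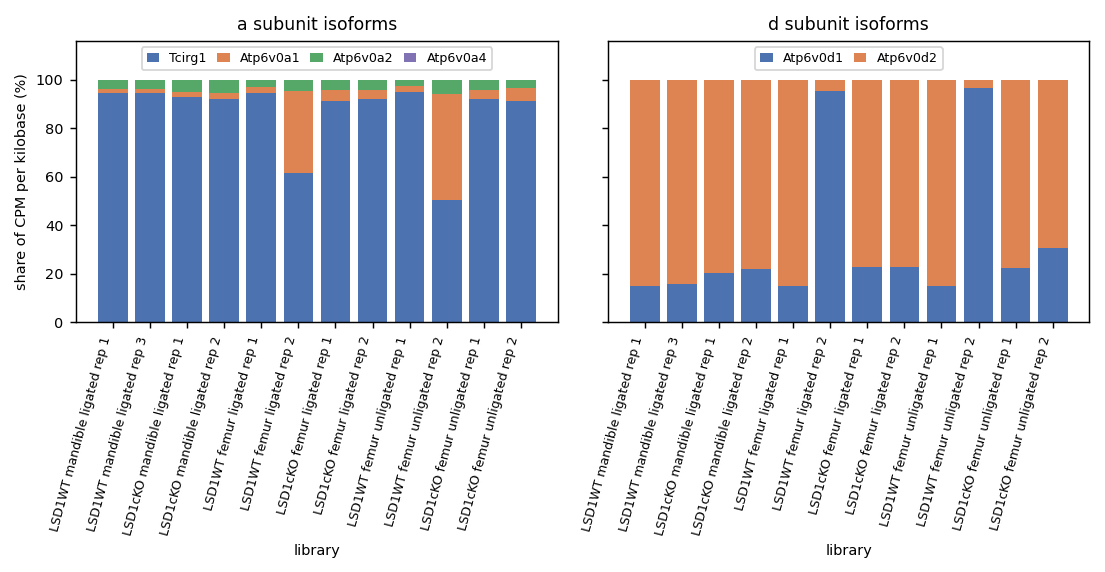
Shares of the a subunit isoforms (left) and d subunit isoforms (right) in percent of summed CPM per kilobase, 1 stacked bar a library. Tcirg1 falls to 61.4% and 50.5%, and Atp6v0d2 to 4.58% and 3.33%, in both femur LSD1WT replicate 2 libraries, and LSD1cKO bars hold slightly less Tcirg1 and Atp6v0d2 than the remaining LSD1WT bars.

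Other subunits had 1 isoform in practice. Atp6v1b2, Atp6v1c1, Atp6v1e1, Atp6v0e and Atp6v1g1 made up 99.0% to 100% of their subunit's transcripts in every library.

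Atp6v1a, the catalytic subunit that splits ATP, was at 2396 and 2407 CPM in mandible LSD1WT and 1495 and 1517 CPM in mandible LSD1cKO. In femur, levels were 2954 and 876 against 1834 and 1705 CPM with ligature and 2541 and 825 against 2162 and 1027 CPM without. The 6 LSD1cKO libraries were below the 4 LSD1WT libraries outside replicate 2 of the femur. Its fold change was -0.29 ± 0.35 (adjusted p = 0.76 in edgeR) over the cultures and -0.65 ± 0.18 (adjusted p = 0.023) without those 2 libraries. Atp6v1h, a regulatory V1 subunit chosen here after its values were seen, was at 474 and 480 CPM in mandible LSD1WT and 287 and 276 CPM in mandible LSD1cKO. Its femur values were 419 and 104 against 223 and 226 CPM with ligature and 376 and 125 against 228 and 197 CPM without. It changed from -0.40 ± 0.34 (adjusted p = 0.62) to -0.78 ± 0.08 (adjusted p = 0.000135) when the 2 libraries were left out. Atp6v1b2, Atp6v1d, Atp6v1e1, Atp6v1f and Atp6v1g1 had their lowest value in either of those 2 libraries, and their ratios of highest to lowest library ran from 2.86 to 7.95.

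The accessory protein Atp6ap1, which helps assemble the pump, was at 496 and 507 CPM in mandible LSD1WT and 396 and 445 CPM in mandible LSD1cKO. Femur libraries held 673 and 461 against 521 and 471 CPM with ligature and 586 and 457 against 648 and 432 CPM without. Its replicate 2 femur LSD1WT values lay close to those of LSD1cKO, and it passed the threshold in neither fit (-0.13 ± 0.15 with adjusted p = 0.74, and -0.23 ± 0.12 with adjusted p = 0.22 without the 2 libraries). Atp6ap2, the prorenin receptor, ran from 267 to 920 CPM, lowest in the ligated femur LSD1WT replicate 2 library.

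Among proteases, the cysteine protease Ctsb differed widely between the femur LSD1WT replicates. It was at 1906 and 1911 CPM in mandible LSD1WT and 1456 and 1697 CPM in mandible LSD1cKO. Femur showed 2631 and 14842 against 2838 and 2505 CPM with ligature and 2656 and 12657 against 3014 and 3476 CPM without. With all libraries its fold change over the cultures was -1.08 ± 0.48 (unadjusted p = 0.0455, adjusted p = 0.30 in edgeR), and without the 2 libraries it was 0.01 ± 0.13 (adjusted p = 0.97).

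Ctsd, the main aspartic protease, had the same shape. Its values were 741 and 756 CPM in mandible LSD1WT, 609 and 751 CPM in mandible LSD1cKO, and in femur 1322 and 5061 against 1425 and 1315 CPM with ligature and 1491 and 4842 against 1519 and 1473 CPM without. Outside the 2 libraries, every femur library lay at 1315 to 1519 CPM in both genotypes. Its fold change was -0.82 ± 0.37 (adjusted p = 0.32) with all libraries and lay within 0.01 of 0 (SE 0.10, adjusted p = 0.99) without them.

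Ctsl, a cysteine protease with broad substrates, was at 365 and 373 CPM in mandible LSD1WT and 537 and 626 CPM in mandible LSD1cKO. Femur values were 350 and 934 against 642 and 630 CPM with ligature, and 373 and 975 against 539 and 851 CPM without. Every LSD1cKO library was above the 4 LSD1WT libraries outside replicate 2 of the femur and below the 2 of replicate 2. The fold change was 0.23 ± 0.29 (adjusted p = 0.78 in edgeR) over the cultures and 0.83 ± 0.14 (adjusted p = 0.0017) without those 2.

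Ctsc, which activates serine proteases of granules, was chosen here after its values were seen, for the largest ratio between libraries. It was at 56.8 and 59.0 CPM in mandible LSD1WT and 137 and 180 CPM in mandible LSD1cKO. Femur values were 109 and 950 against 335 and 335 CPM with ligature and 123 and 797 against 264 and 262 CPM without. It showed the same order as Ctsl, with a fold change of -0.04 ± 0.62 (adjusted p = 0.99) over the cultures and 1.43 ± 0.12 (adjusted p = 3.35e-05) without the 2 libraries. The macrophage marker sum was higher in the femur LSD1cKO than in the femur LSD1WT replicate 1 libraries (2368 to 3386 against 2203 and 2280 CPM). Csf1r was lower in ligated femur LSD1cKO (1564 and 1156 against 1668 CPM) and lay on both sides in unligated femur (2078 and 841 against 1522 CPM). Marco went the same way, and the other markers were higher. The part of these markers in the protease differences was not tested.

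Ctsz, a carboxypeptidase, was at 766 and 784 CPM in mandible LSD1WT and 667 and 749 CPM in mandible LSD1cKO. The femur libraries gave 764 and 623 against 805 and 710 CPM with ligature and 663 and 561 against 914 and 704 CPM without. It varied little, with a fold change of 0.13 ± 0.14 (adjusted p = 0.71 in edgeR). Of the other proteases, Ctsa and Tpp1 moved within 2.17 and 1.97 times over the 12 libraries, and Ctsh ran from 37.4 to 263 CPM.

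**Figure D4:**
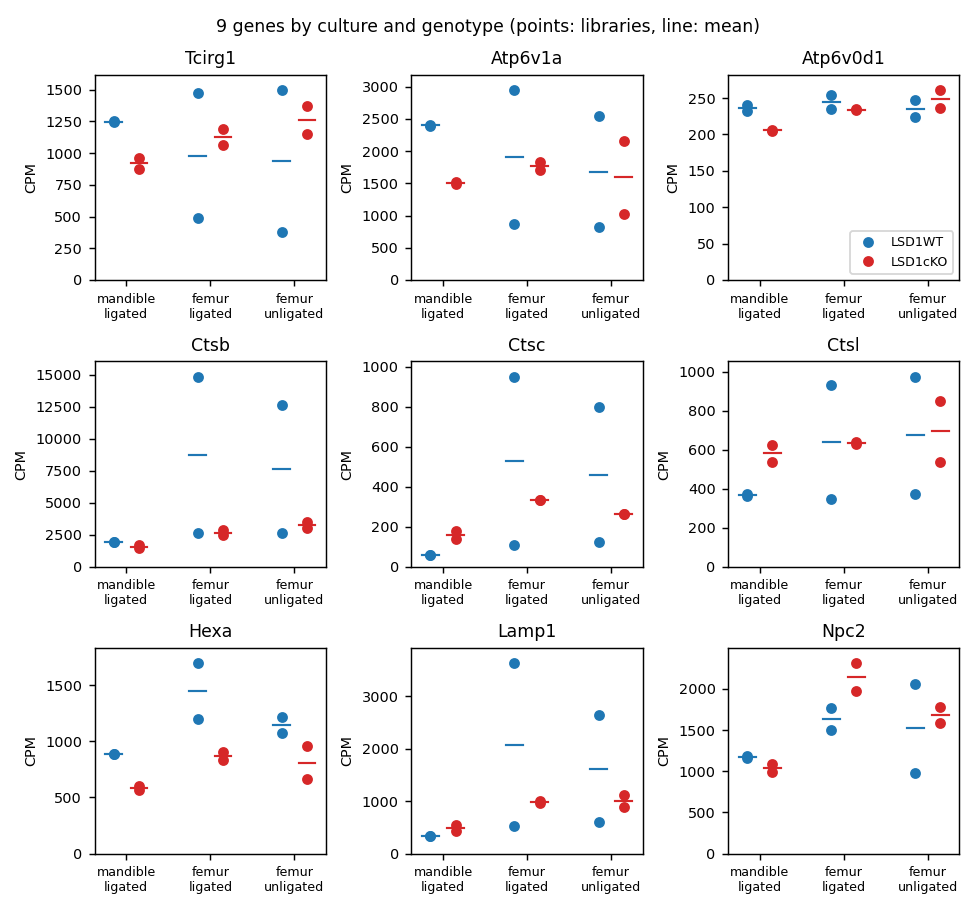
CPM on linear axes from 0 for 9 genes, by culture, with LSD1WT in blue and LSD1cKO in red; points are the 2 libraries of a condition and lines their mean. The 2 LSD1WT points of each femur culture lie far apart for Tcirg1, Atp6v1a, Ctsb, Ctsc, Ctsl and Lamp1 but close for Atp6v0d1, and Hexa is lower in LSD1cKO in every culture.

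Hexa, the alpha chain of beta-hexosaminidase, which splits gangliosides, was the only one of the 39 genes past the threshold with all libraries. It was at 888 and 883 CPM in mandible LSD1WT and 565 and 600 CPM in mandible LSD1cKO. Femur levels were 1200 and 1692 against 907 and 830 CPM with ligature and 1216 and 1070 against 960 and 661 CPM without. In each culture both LSD1cKO libraries lay below both LSD1WT libraries. Hexa fell by 0.61 ± 0.14 on the log2 scale over the cultures (adjusted p = 0.041 in edgeR) and by 0.52 ± 0.12 (adjusted p = 0.010) without the 2 libraries. The call was narrow: it was lost when any of 11 of the 12 libraries was left out (adjusted p of 0.051 to 0.17), and held without unligated femur LSD1cKO replicate 1 (adjusted p = 0.026).

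Glb1, the lysosomal beta-galactosidase, was at 134 and 133 CPM in mandible LSD1WT and 85.6 and 98.3 CPM in mandible LSD1cKO. Femur values were 215 and 182 against 118 and 94.4 CPM with ligature, and 192 and 171 against 181 and 83.3 CPM without. It was lower in LSD1cKO without overlap in both ligated cultures (-0.63 ± 0.18 over the cultures, adjusted p = 0.097 in edgeR), and passed the threshold without the 2 libraries (-0.64 ± 0.19, adjusted p = 0.034). Gla, which removes terminal galactose from glycolipids, was at 95.2 and 92.3 against 71.0 and 72.5 CPM in mandible, 89.1 and 128 against 83.7 and 88.4 CPM in ligated femur and 84.8 and 128 against 82.2 and 89.7 CPM in unligated femur. Its difference over the cultures was -0.34 ± 0.12 (adjusted p = 0.19), and -0.13 ± 0.10 (adjusted p = 0.35) without the 2 libraries. Gusb stayed within 496 to 757 CPM. Man2b1, a mannosidase, and Lipa, the acid lipase that frees cholesterol from its esters, were highest in both femur LSD1WT replicate 2 libraries (up to 1017 and 2149 CPM) and lowest in mandible LSD1WT (140 and 296 CPM).

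Of the membrane proteins, Lamp1 was at 328 and 332 CPM in mandible LSD1WT and 432 and 551 CPM in mandible LSD1cKO. In femur, levels were 526 and 3619 against 1005 and 967 CPM with ligature and 595 and 2637 against 888 and 1109 CPM without. LSD1cKO libraries lay above the LSD1WT libraries of the same culture except for replicate 2 of the femur, which lay far above both. The fold change was -0.41 ± 0.50 (adjusted p = 0.76 in edgeR) with all libraries and 0.76 ± 0.12 (adjusted p = 0.0014) without the 2. Lamp2, the other abundant lysosomal membrane protein of the pair, ran from 119 to 1182 CPM in the same order.

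Psap was at 1794 and 1793 CPM in mandible LSD1WT and 1447 and 1779 CPM in mandible LSD1cKO. Femur libraries held 2938 and 9210 against 3997 and 3074 CPM with ligature and 2801 and 4679 against 4179 and 2573 CPM without. Its genotypes overlapped in both femur cultures, and it passed the threshold in neither fit (-0.36 ± 0.29 with adjusted p = 0.61, and 0.13 ± 0.17 with adjusted p = 0.64 without the 2 libraries).

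Npc2, which hands cholesterol to the transporter Npc1 inside the lysosome, was at 1155 and 1190 CPM in mandible LSD1WT and 994 and 1087 CPM in mandible LSD1cKO. Femur showed 1767 and 1502 against 1970 and 2308 CPM with ligature and 2063 and 985 against 1775 and 1589 CPM without. It was lower in LSD1cKO in mandible and higher in ligated femur, both without overlap, and its fold change over the cultures was 0.12 ± 0.19 (adjusted p = 0.83 in edgeR). Npc1 ran from 167 to 364 CPM. Mcoln1, a calcium channel of the lysosome, was at 40.2 and 39.3 against 38.9 and 37.3 CPM in mandible, 49.8 and 67.6 against 50.5 and 47.3 CPM in ligated femur and 49.0 and 63.3 against 54.7 and 61.4 CPM in unligated femur. It differed between genotypes by -0.09 ± 0.11 on the log2 scale (adjusted p = 0.76).

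The transcription factor Tfeb was at 30.2 and 30.8 CPM in mandible LSD1WT and 29.1 and 32.3 CPM in mandible LSD1cKO. Femur values were 43.2 and 49.2 against 56.5 and 50.1 CPM with ligature and 42.6 and 39.3 against 57.5 and 37.8 CPM without. Tfe3 was at 62.1 and 68.7 against 67.2 and 75.2 CPM in mandible, 91.5 and 207 against 98.2 and 92.8 CPM in ligated femur and 90.4 and 180 against 111 and 97.5 CPM in unligated femur. Tfe3 was highest in the 2 replicate 2 femur LSD1WT libraries, while Tfeb was highest in unligated femur LSD1cKO replicate 1. Over the cultures Tfeb differed by 0.14 ± 0.12 (adjusted p = 0.61) and Tfe3 by -0.30 ± 0.23 (adjusted p = 0.60), and without the 2 libraries by 0.18 ± 0.13 (adjusted p = 0.35) and 0.17 ± 0.08 (adjusted p = 0.17).

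Counted over all 39 genes, the genotype comparison over the 3 cultures called 1 gene lower (Hexa) and 0 higher with 12 libraries, beside 0.532% of all genes tested called lower and 3.53% in either direction. At an unadjusted p under 0.05 it gave 5 lower (Ctsb, Tpp1, Hexa, Gla and Glb1) beside 7.76% of all genes, and 0 higher beside 8.31%. In none of the 39 did all 6 LSD1cKO libraries lie on one side of all 6 LSD1WT libraries, beside 1.98% of all genes that were higher and 0.797% that were lower in this sense. DESeq2 called 2 lower, Hexa and Glb1, beside 8.09% of all genes. The median log2 fold change was -0.13 over the 17 V-ATPase genes, -0.24 over the other 22 genes and -0.06 over all genes tested. Without both femur LSD1WT replicate 2 libraries, 7 of the 39 genes were higher and 13 lower, beside 14.4% and 9.75% of all genes.

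Those 20 genes divided by role. All 11 called V-ATPase genes were lower: both osteoclast-enriched subunits, Atp6v0c and Atp6v0e of V0, every V1 subunit listed but Atp6v1f, and Atp6ap2. Their changes ran from -0.33 (Tcirg1) to -0.90 (Atp6v1b2). The 7 genes that rose were the proteases Ctsc, Ctsh (0.83) and Ctsl, the hydrolases Man2b1 (0.58) and Lipa (0.62), and the membrane proteins Lamp1 and Lamp2 (0.92). The remaining 2, Hexa and Glb1, were lower. The median was -0.42 over the V-ATPase genes, 0.07 over the other 22 and 0.02 over all genes. Of the 11 genes with an E-box in the promoter, 2 were higher and 3 lower, and of the 20 with a promoter entry and no E-box, 4 were higher and 6 lower. Of the 8 with no promoter entry, 1 was higher and 4 lower. Over all genes tested the shares were 14.4% higher and 9.75% lower.

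**Figure D5:**
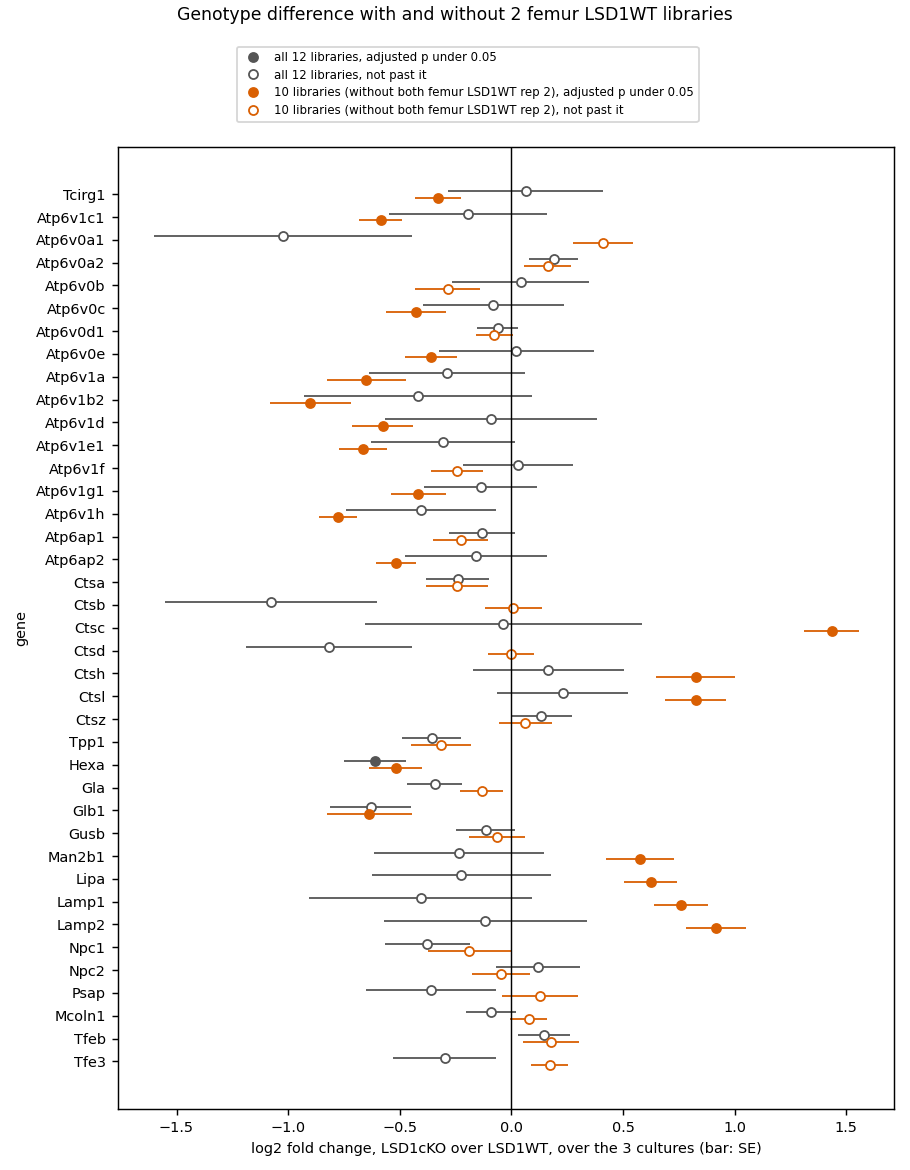
log2 fold change of LSD1cKO over LSD1WT over the 3 cultures for the 39 genes, with bars for 1 SE, from all 12 libraries (grey) and without both femur LSD1WT replicate 2 libraries (orange); filled points passed an adjusted p of 0.05. With 12 libraries Hexa alone is filled, and with 10 libraries 13 genes are filled below 0, 11 of them V-ATPase genes, and 7 above 0.

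In mandible of ligated mice, V-ATPase genes were lower in LSD1cKO and lysosomal membrane and protease genes were split. Of the 17 V-ATPase genes, 15 had their 2 LSD1cKO values below their 2 LSD1WT values, the exceptions being Atp6v0a1 and Atp6v0a2. Over the 39 genes 27 were lower and 8 higher without overlap, beside 34.8% and 34.1% of all genes tested. The largest differences were -0.87 ± 0.97 for Atp6v1b2 and 1.45 ± 0.97 for Ctsc. With the spread shared over all 12 libraries, edgeR called 0 of the 39 genes and 0 of all genes (0%), and at an unadjusted p under 0.05 it gave 0 of the 39 genes, beside 3.81% of all genes higher and 1.01% lower. DESeq2 called 0 of the 39 as well, beside 0.947% of all genes.

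Fold changes hardly moved between fits, while their errors did. With the 4 mandible libraries alone, 30 of the 39 genes were called, 23 lower and 7 higher, beside 37.7% of all genes. They include 15 V-ATPase genes, such as Tcirg1 (-0.44 ± 0.07, adjusted p = 0.0015) and Atp6v1a (-0.67 ± 0.05, adjusted p = 5.94e-05), and Ctsc (1.45 ± 0.11, adjusted p = 7.19e-05). That fit takes its error from pairs of which the LSD1WT pair differed little beyond sampling, with a biological coefficient of variation of 0.0678 against 0.419 over the 12 libraries, so its p-values may be too small. Without both femur LSD1WT replicate 2 libraries, the coefficient was 0.189 and 4 of the 39 genes were called, beside 5.85% of all genes. These were Atp6v1h (-0.73 ± 0.14, adjusted p = 0.024), Ctsc (1.48 ± 0.16, adjusted p = 0.0026), Ctsh (0.81 ± 0.15, adjusted p = 0.022) and Lamp2 (0.85 ± 0.17, adjusted p = 0.031). Both LSD1cKO mandible libraries had an osteoclast marker sum of 13656 and 13896 CPM against 24527 and 24423 CPM in LSD1WT, with all 10 markers lower in both, and the part of that in the V-ATPase values was not tested. The macrophage marker sums were 972 and 1235 against 1171 and 1172 CPM, and single markers went both ways. Csf1r, the largest, was at 777 and 908 CPM in LSD1cKO against 1051 and 1050 CPM in LSD1WT. Adgre1 was at 117 and 187 against 47.6 and 49.8 CPM. Cd14, Fcgr1 and Marco were also higher in LSD1cKO without overlap, and the remaining markers overlapped.

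In femur the genotype comparisons rest on LSD1WT pairs whose 2 libraries stood far apart for most of the 39 genes. With ligature, 0 of the 39 genes were called in edgeR beside 0.00648% of all genes (1 gene), and at an unadjusted p under 0.05 there were 2 lower (Hexa and Glb1) beside 2.97% of all genes, and 0 higher beside 3.91%. Without ligature it called 0 of the 39 genes and 0 of all genes (0%), and at an unadjusted p under 0.05 it gave 0 of the 39 genes beside 3.61% of all genes higher and 1.34% lower. DESeq2 called 0 of the 39 in both. Its calls over all genes are not given for these 2 comparisons, so that 0 cannot be read as particular to the 39. In ligated femur, 6 genes lay lower in LSD1cKO without overlap (Ctsa, Tpp1, Hexa, Gla, Glb1 and Npc1) and 3 higher (Atp6v0a2, Npc2 and Tfeb), beside 19.4% and 14.8% of all genes. In unligated femur 1 lay lower (Hexa) and 2 higher (Atp6v0a2 and Ctsz), beside 8.57% and 9.82%.

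When the replicate 2 libraries are left out, 1 LSD1WT library remains in each femur culture and is assumed to vary like the other groups. Ligated femur then gave 5 calls beside 9.35% of all genes: Atp6v1h (-0.81) was lower, and Ctsc (1.71), Ctsh, Lamp1 (0.99) and Lamp2 (1.31) were higher. Unligated femur gave 1, Ctsc (1.10), beside 2.47%. The V-ATPase median was -0.36 with ligature and -0.52 without, against 0.03 and 0.02 over all genes.

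Mandible against femur of ligated mice was compared within each genotype. In LSD1cKO, where the same 2 mice gave both cultures, most hydrolase and membrane protein genes were lower in mandible. Over the 39 genes 27 were lower without overlap and 1 higher (Atp6v1h), beside 35.0% and 35.3% of all genes. The 12 libraries gave 0 calls among the 39 genes and 0 of all genes (0%), while 2 of the 39 (Npc2 and Tfeb) were lower at an unadjusted p under 0.05, beside 6.81% of all genes lower and 8.18% higher, and DESeq2 called 1 (Tfeb) beside 5.25% of all genes. Without both femur LSD1WT replicate 2 libraries, which are in neither group but widen the shared error, 12 were called lower in mandible and 0 higher, beside 21.7% of all genes called in either direction. They were Atp6v0a1 (-1.27), Ctsb (-0.78), Ctsc (-1.10), Ctsd (-1.03), Ctsh (-1.06), Man2b1 (-1.04), Lipa (-0.74), Lamp1 (-1.02), Lamp2 (-1.17), Npc2 (-1.06), Psap (-1.15) and Tfeb (-0.81). The 4 libraries alone called 18 lower and 1 higher (Atp6v1h), beside 42.1% of all genes, and with the mouse as a block in these 4 libraries 15 were lower and 0 higher, beside 38.2%. The median was -0.15 over the V-ATPase genes and -0.67 over the other 22 without the 2 libraries. Macrophage marker sums were 972 and 1235 CPM in mandible and 3254 and 2505 CPM in femur, and their part in these values was not tested.

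In LSD1WT only mouse 1 gave both cultures, and the femur group holds the ligated replicate 2 library. edgeR called 0 of the 39 genes and 0 of all genes (0%), but 15 of the 39 were lower in mandible at an unadjusted p under 0.05 and 0 higher, beside 14.7% and 5.06% of all genes. Without overlap 19 were lower and 6 higher, beside 31.5% and 29.2%. The 15 included Ctsh (-2.04 ± 0.61, adjusted p = 0.18), Lipa (-2.20 ± 0.67, adjusted p = 0.18) and Psap (-1.76 ± 0.56, adjusted p = 0.19). DESeq2 called 9, all lower in mandible, beside 7.71% of all genes. Without the 2 libraries 0 of the 39 were called, beside 0.900% of all genes, with a single femur library left.

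Ligature made no difference that could be called in femur. Both genotypes gave 0 of the 39 genes and 0 of all genes (0%) in edgeR, and 0 of the 39 at an unadjusted p under 0.05, beside 0.454% of all genes higher and 0.311% lower in LSD1WT, and 0.499% and 0.46% in LSD1cKO. Without overlap 2 of the 39 were higher and 0 lower in LSD1WT, beside 5.25% and 3.93% of all genes. In LSD1cKO 5 were higher and 4 lower, beside 14.0% and 16.0%. DESeq2 called 0 of the 39 in either, and its calls over all genes are not given here. Fold changes of the 39 genes ran from -0.27 to 0.84 in LSD1WT and from -0.37 to 0.68 in LSD1cKO, with the highest value for Ctsh in both. Whether genotype effects differed by site, or by ligature in femur, was tested by an interaction term. It called 0 of the 39 genes and 0 of all genes (0%) in edgeR. In DESeq2, whose calls over all genes are not given here, it called 0 of the 39. The lowest unadjusted p among the 39 in edgeR was 0.141 for site (Lipa) and 0.300 for ligature (Tpp1). By site the median was -0.56 over the V-ATPase genes, 0.52 over the other 22 and 0.09 over all genes, with all 12 libraries. Those medians rest in part on the ligated femur LSD1WT replicate 2 library. Without both femur LSD1WT replicate 2 libraries, the median genotype difference of the V-ATPase genes was -0.41 in mandible and -0.36 in ligated femur. Over the other 22 it was then -0.10 and 0.14. At an unadjusted p under 0.05 all genes gave 0.558% higher and 0.408% lower for site, and 0.136% and 0.207% for ligature.

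Of 78 other genes of the lysosome listed by role, 72 were tested. Over the 3 cultures 1 was called higher and 0 lower, beside 3.53% of all genes in either direction and 0.532% lower. At an unadjusted p under 0.05 there were 4 higher and 16 lower, beside 8.31% and 7.76% of all genes. The gene called was Gm2a, the cofactor of beta-hexosaminidase, at 185 and 191 against 316 and 397 CPM in mandible, 343 and 411 against 613 and 571 CPM in ligated femur and 356 and 242 against 684 and 357 CPM in unligated femur (0.79 ± 0.17, adjusted p = 0.034). It rose where Hexa, the enzyme it serves, fell. Without both femur LSD1WT replicate 2 libraries, 73 were tested and 11 were called higher and 10 lower, beside 14.4% and 9.75% of all genes.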

How the data were processed

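The authors deposited gene counts for 12 libraries. Their processing notes name HISAT2 (2.1.0), FastQC, featureCounts, edgeR and GRCm39, without giving their roles, and the annotation release and strand setting are not given in the sources used here. With edgeR (4.0.16, R 4.3.3), counts were filtered with filterByExpr, which kept 15425 of 57010 genes, scaled by TMM and fitted with the quasi-likelihood test on all libraries. The genotype comparison over the cultures had culture as a term, and the others were contrasts of the 6 conditions. P-values were adjusted over all genes tested (Benjamini-Hochberg, threshold 0.05). The standard error is the absolute log2 fold change divided by the square root of F. CPM used the TMM-scaled library sizes. Lengths came from GENCODE vM21 (GRCm38) and were matched by gene, and no coordinates were carried between builds.

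The 39 genes and all lists were chosen with earlier results of these data known. Values in every library were given for genes set by role, those past the threshold in any comparison, and the 3 higher and 3 lower with the smallest p over the cultures, with Ctsc and Atp6v1h added after their values were seen. The scripts were tested on simulated data. Alternatives used DESeq2 (1.42.0), other scalings, filters and library sets, and 2 of them were added after the data were seen. P-values measure the spread between these libraries, and counting error is small at these depths. The main fits treated the 12 libraries as independent, although 3 of the 9 mice gave 2 libraries each. The p-values therefore do not measure the spread between mice alone.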

Additional observations from a re-analysis of the deposited data

Results flagged for a closer look

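Npc2 and Ctsz were the 2 of the 39 genes whose genotypes separated in opposite directions in 2 cultures. Separation in a single culture was common: in mandible 34.1% of all genes tested were higher and 34.8% lower without overlap. These shares were 14.8% and 19.4% in ligated femur and 9.82% and 8.57% in unligated femur. How many of all genes separated in opposite directions was not counted. Npc2 was lower in both LSD1cKO than in both LSD1WT libraries of mandible, and higher in those of ligated femur. The difference between the genotype effects at the 2 sites was a log2 value of -0.56 (adjusted p = 0.99987 in edgeR's quasi-likelihood test), so it did not pass the threshold. Ctsz was lower in LSD1cKO without overlap in mandible and higher without overlap in unligated femur. Its log2 fold changes differed by -0.53 (mandible minus unligated femur), and this difference, which crosses both site and ligature, was not tested. Within a condition of 2 libraries, neither can be called an outlier of the pair.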

How the results depend on the processing

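Of 1300 values recomputed under the alternatives, 1132 stayed the same. For the fold change of a gene this means the same direction and call, which includes genes that neither fit called. For a count of genes called it means an equal or similar count. Of the 39 genes, the genotype comparison over the cultures called 1 (Hexa). It called 0 with no filter beyond 1 count, 0 with a mean of at least 10 counts, 0 with mandible LSD1WT replicate 3 taken as femur, 0 with the mandible LSD1WT pair summed, 2 in DESeq2, 20 without both femur LSD1WT replicate 2 libraries, and 0 to 3 with 1 library left out (3 without unligated femur LSD1cKO replicate 1). Over all genes it called 544, against 1248 in DESeq2, 348 with replicate 3 as femur, 335 with the pair summed and 3867 without both libraries. With 1 library left out it called 298 to 653 of all genes.

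Mandible against femur in LSD1WT called 0, against 8 with no filter (3.02% of all genes), 9 in DESeq2 (7.71%) and 0 to 13 with 1 library left out (13 without ligated femur LSD1WT replicate 1, beside 23.2%). In LSD1cKO it called 0, against 1 in DESeq2, 19 from the compared libraries alone, 12 without both libraries, and 0 to 1 with 1 library left out (1 without either ligated femur LSD1WT library). Over all genes, the LSD1cKO fits with 1 library left out gave 0 to 688 calls. The genotype comparison in mandible called 0, against 30 from its own libraries and 4 without both libraries, which also gave 5 calls in ligated and 1 in unligated femur where there were 0. Over all genes it called 0 in mandible, against 45 with no filter, 146 in DESeq2, 936 without both libraries and 5434 from its own libraries.

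Both LSD1cKO mandible libraries, and LSD1WT mandible replicate 1, came from mice that also gave a ligated femur library. LSD1cKO alone had complete pairs, and blocking by mouse in those 4 libraries (replicate block) gave 15 calls. Elsewhere replicate numbers were shared without a stated link: 5 of 10 correlations between their deviations were over 0.1, from -0.197 to 0.780. A replicate block over all libraries gave 0 calls over the cultures and turned the log2 fold changes of Atp6v1c1 (0.15), Atp6v0c (0.19) and Atp6v1a (0.017) and, in mandible, Tfe3 (-0.0064).

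Other changes of direction were small or rested on the 2 libraries. Without both, fold changes over the cultures were -0.33 for Tcirg1, 0.76 for Lamp1, 0.0091 for Ctsb, 0.13 for Psap, -0.045 for Npc2, 0.17 for Tfe3 and 0.077 for Mcoln1. With replicate 3 as femur they were 0.014 for Atp6v0d1 and 0.013 for Mcoln1, with the pair summed 0.011 for Atp6v0c and 0.0078 for Atp6v0d1, and with no filter 0.0071 for Mcoln1 in mandible. Leaving out 1 library gave -0.11 to 0.34 for Tcirg1, -0.39 to 0.11 for Atp6v1c1, -0.23 to 0.20 for Atp6v0c, -0.076 to 0.013 for Atp6v0d1 and -0.51 to 0.17 for Lamp1 over the cultures, and in mandible -0.28 to 0.018 for Ctsd, -0.29 to 0.0016 for Psap and -0.050 to 0.094 for Tfeb. The cause of these shifts was not tested beyond the libraries named.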
